A study of Mus musculus with 9 samples.

Results

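The comparison described here set samples from crushed retinas that lacked the zinc transporter ZnT3 in amacrine cells against samples from crushed wild-type retinas. Its members were the 6 libraries of those groups, of 9 in the series, and every gene in the deposited table was compared between them. ONC stands for wild-type mice 3 days after optic nerve crush, and CKO for mice with a conditional knockout of ZnT3 in amacrine cells, also 3 days after crush. Ctrl, the third group, came from wild-type retinas that were not injured and serves below as a reference level. Each group had 3 libraries, and both compared groups shared the crush. Per the labels, the RNA came from retinal ganglion cells sorted by flow cytometry. Crushed or intact retinas named below stand for such samples as labelled, not for whole-retina RNA. The labels name neither the Cre driver of the knockout nor the age of the mice, and no intact knockout group was analysed here. Whether each library came from its own animals is not stated either. The p-values therefore cover only the spread among these samples, and that spread may be technical.

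Retinal ganglion cells are the output neurons of the eye, and their axons form the optic nerve. Amacrine cells are interneurons that synapse onto them. ZnT3, encoded by Slc30a3, moves zinc into synaptic vesicles, so its loss removes the zinc that such synapses release. Crush of the optic nerve cuts the axons without removing the cells, and most of the injured neurons die over the following weeks. Growth factors of the fibroblast growth factor (FGF) family and the cytokine Cntf are known for protecting injured ganglion cells, and Müller glia, the radial glia of the retina, make several such factors after injury. The comparison asks which transcripts differ after crush when amacrine ZnT3 is missing.

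The libraries bear on every result below. Total counts ran from 21094249 to 23549482 in the 6 libraries. The ONC table columns are numbered 3, 5 and 6, and the labels do not tie those numbers to single samples, so they are called columns here. ONC columns 3 and 6 were more alike than any other pair, with a Pearson r of 0.992 across genes on the log2 CPM scale, where CPM is a read count divided by a library size corrected for composition. Their variance was 3.76 times that of counting alone, against 11.5 to 12.2 times between CKO replicates and 12.3 to 15.9 times between Ctrl replicates. Amplified copies raise this figure even for repeat preparations of one RNA, so the counts cannot tell whether the columns are separate samples. They enter the fit as separate libraries, as labelled. Summed into 1 library they leave 1 gene called in each direction, Fgf2 and Arhgdia. Column 5 differed from columns 3 and 6 with r values of 0.933 and 0.937, and it stood nearer to the CKO replicates, with r values of 0.952 to 0.954. Such r values are taken across genes and are descriptive only.

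Columns 3 and 6 also read GC-rich genes more deeply. With each gene's log2 level set against its mean over the 9 libraries, the median of the 20% of genes richest in GC exceeded that of the 20% poorest by 1.0 in column 3 and 0.79 in column 6. The same difference was -0.05 in column 5, and -0.24, -0.24 and -0.07 in CKO replicates 1, 2 and 3. Genes called higher in CKO had a median GC content of 42.5%, genes called lower had 55.3%, and all genes tested had 49.3%. The part of GC content in the results was not tested beyond a fit with per-library corrections for GC content and gene length. In that fit 58 of the 137 genes called below were still called. Of the 36 called genes that the naming rule picks, 21 were still called and 15 were not, and those 15 are identified below or in the closing section.

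**Figure D1:**
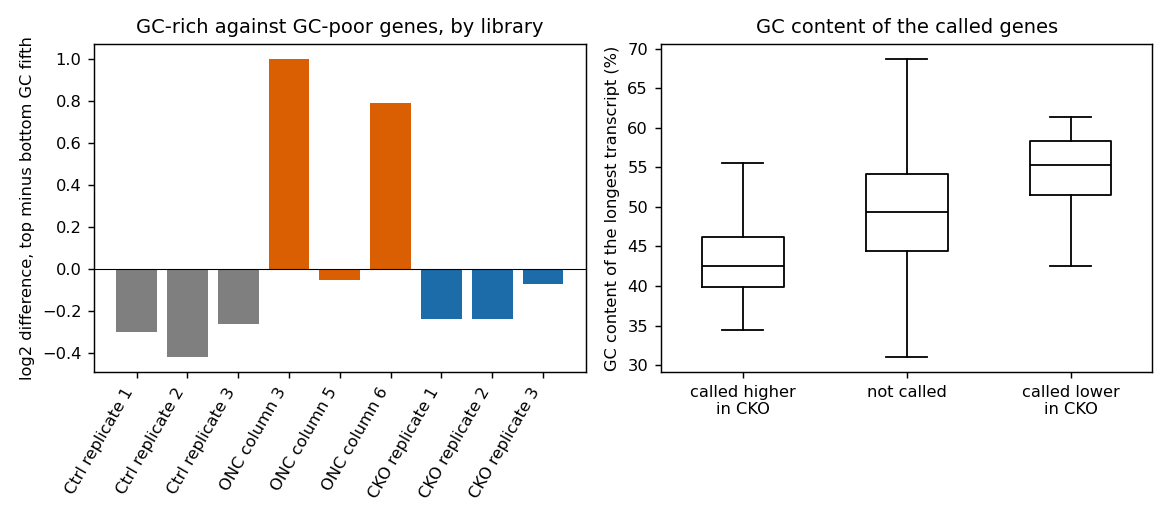
Left, median log2 level, relative to each gene's mean, of the 20% of genes richest in GC minus that of the 20% poorest, one bar per library (grey Ctrl, orange ONC, blue CKO). Right, GC content (%) of genes called higher in CKO, not called, or called lower, as boxes of the quartiles with the median as a line and whiskers to 1.5 times the box height. ONC columns 3 and 6 stand at 1.0 and 0.79 while the other libraries lie at or below -0.05, and the medians of genes called higher and lower are 42.5% and 55.3%.

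Markers of the labelled cell type were scarce. The ganglion cell list summed to between 147 and 217 CPM in the 6 libraries, while single rod photoreceptor genes stood far higher. Sag, which encodes the arrestin of rods, ran from 11600 to 15600 CPM, and the phosphodiesterase subunit gene Pde6g from 11500 to 14000 CPM. Pou4f2, a transcription factor that marks ganglion cells, averaged 0.132 CPM in ONC and 0.0148 CPM in CKO and fell below the expression filter. In bulk RNA of this kind, fewer cells of a type and less RNA per cell cannot be told apart. The targeted gene gave no check of the genotype. Slc30a3 counts were 0, 1 and 0 in the ONC columns, and the CKO replicates had 1, 4 and 2. Its log2 difference without an expression filter was 2.39, with an adjusted p of 0.388.

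Across the transcriptome, the smallest p values between knockout and wild type belonged to a higher level of the growth factor gene Fgf2 and a lower level of Arhgdia, an inhibitor of small GTPases. The cytokine gene Cntf, the stress gene Nupr1 and the glial genes Gfap and Cp were also higher in CKO. Tfap2b, an amacrine and horizontal cell transcription factor, and the neuropeptide gene Cartpt were lower. Calls rest on edgeR's quasi-likelihood test, fitted to all 9 libraries, at a p under 0.05 after Benjamini-Hochberg adjustment. Of 15841 genes tested, 137 were called, or 0.865%. Genes called higher in CKO numbered 93 (0.587%), and 44 were called lower (0.278%). Among them, 52 of those higher and 27 of those lower differed by at least 1 on the log2 scale. The median log2 difference over all genes tested was -0.02.

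The CKO and ONC libraries did not overlap for 26.2% of all genes tested, 13.6% with CKO higher and 12.6% with CKO lower. Before adjustment, at a p under 0.05, 14% of genes were higher and 13.3% lower; DESeq2 called 7.5% higher and 6.77% lower after adjustment. The number of calls hung on single libraries. Without ONC column 5 there were 3277 genes higher and 2664 lower, whereas without column 3 there were 2 and 2, and without column 6 there was 1 in each direction. Without a CKO replicate, 1 or 2 genes were higher and 1 was lower, and without a Ctrl replicate 5 to 11 were higher and 2 to 4 lower. With column 5 as the only ONC library, the median log2 difference of the called genes was 0.88 instead of 1.09 for those higher, and -0.82 instead of -1.07 for those lower. Column 5 lay nearer to CKO than columns 3 and 6 did for 75 of the 93 genes higher and 36 of the 44 lower. The same share over all genes tested was not counted, and by r column 5 stood nearer to CKO across genes as well.

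**Figure D2:**
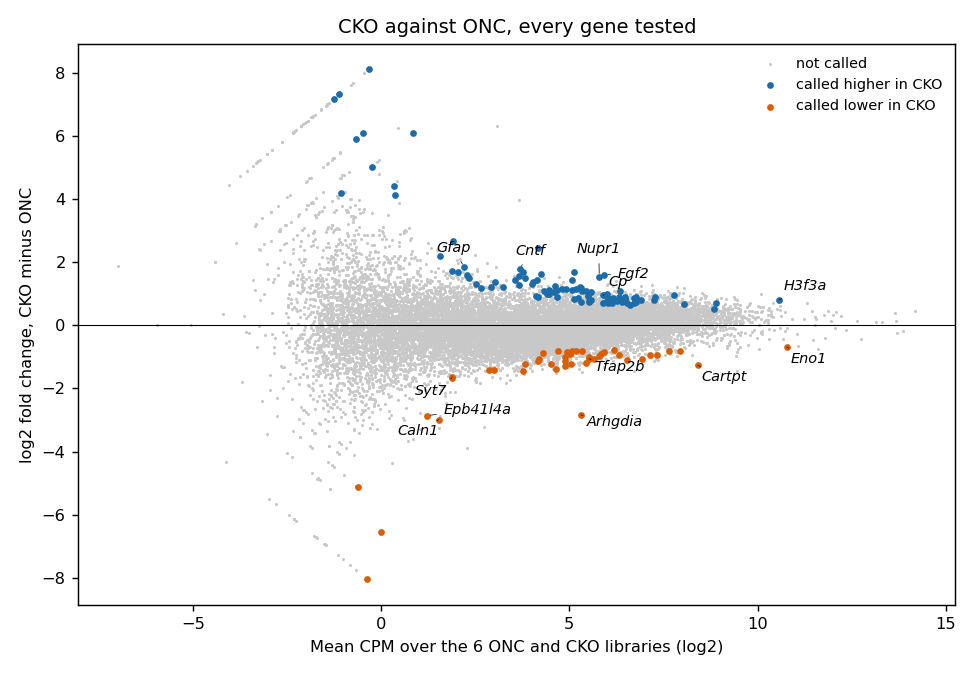
Log2 fold change of CKO over ONC (vertical) against the mean CPM of the 6 libraries on a log2 scale (horizontal), one point per gene tested. Blue points are the 93 genes called higher in CKO and orange points the 44 called lower; Fgf2 and Cntf stand above, and Arhgdia, at -2.84, stands below genes of like level.

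Fgf2 gave the smallest p of the comparison. The gene encodes a secreted heparin-binding growth factor that acts through FGF receptors and keeps retinal neurons alive after injury. It lies on GRCm38 chromosome 3 from 37348346 to 37410108 on the plus strand (ENSMUSG00000037225). The level of Fgf2 in ONC columns 3, 5 and 6 was 27.9, 32.8 and 29.8 CPM, while CKO replicates 1, 2 and 3 had 90.5, 93.8 and 91.4 CPM. Every knockout library lay far above every wild-type one, and the spread within each group was a few CPM. Fgf2 was 3.05-fold higher in CKO, a log2 fold change of 1.61 ± 0.13 (SE) with an adjusted p of 0.000621. Intact retinas averaged 21.5 ± 0.931 CPM (SD, n = 3), and crush alone gave a log2 fold change of 0.49 over them (adjusted p = 0.018).

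The Fgf2 call held in 19 of 19 alternative analyses, with log2 fold changes of 1.33 to 1.67 and adjusted p values up to 0.0132. Against column 5 alone the log2 fold change was 1.49, and with correction for GC content and length it was 1.33. Nudt6, the antisense gene that overlaps Fgf2, had 14.2 CPM in ONC and 13.7 CPM in CKO, a log2 fold change of -0.05 (adjusted p = 0.915). The library kit does not mark strand, so reads from the overlap cannot be assigned to one of the pair.

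The Fgf2 promoter is shown because the study concerns zinc and because the promoter can be set beside those of the metallothionein genes below. Zinc acts on transcription through metal response elements, which the zinc-sensing factor Mtf1 binds. Sequences are from RefSeq (GRCm38.p6), from 250 bases before to 50 after the annotated start, and the core TGCACNC or TGCGCNC was searched on both strands. Capitals mark its matches. The Fgf2 window, chr3:37348403-37348702 on the plus strand, held 2 matches, and 25.7% of 32851 mouse promoters of this length hold at least 1. The share holding 2 or more was not counted. For Arhgdia, 1 window held 1 match and another held 0. The window of the metallothionein gene Mt3 held 1, and neither gene was higher in CKO. A match is a description of the letters and not a bound site, and an action of zinc on Fgf2 was not tested.
Fgf2: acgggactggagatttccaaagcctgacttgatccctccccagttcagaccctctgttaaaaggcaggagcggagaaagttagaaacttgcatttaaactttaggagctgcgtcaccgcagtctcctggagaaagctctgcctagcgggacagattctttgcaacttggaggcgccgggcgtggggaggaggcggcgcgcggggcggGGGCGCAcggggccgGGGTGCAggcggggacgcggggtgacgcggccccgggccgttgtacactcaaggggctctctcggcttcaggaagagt

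Other FGF genes gave a mixed picture. Of 38 listed FGF ligands, receptors and feedback genes 25 were tested, 2 of them were called higher, and none lower. The median log2 difference of the 25 was 0.05, against -0.02 over all genes; under library totals alone these were -0.06 and -0.13. Fgf13, an intracellular FGF that binds sodium channels, was the other gene called, with 11.8, 12.6 and 13.3 CPM in ONC and 24.9, 20.2 and 24.7 CPM in CKO. Its groups did not overlap, and the log2 fold change was 0.89 ± 0.18 (adjusted p = 0.0492; 0.0672 with GC correction). Dusp6, a phosphatase induced by FGF signalling through ERK, stood at 1.62, 2.47 and 1.88 CPM in ONC and 6.01, 2.75 and 6.46 CPM in CKO, with a log2 fold change of 1.35 that missed the threshold (adjusted p = 0.0763). The receptor gene Fgfr1 had a log2 fold change of 0.72 (adjusted p = 0.203), and the feedback inhibitor Spry4 one of -1.24 (adjusted p = 0.142). Fgf1, the ligand most like Fgf2, had 0.405 CPM in ONC and 1.09 CPM in CKO, and its difference did not pass the test (adjusted p = 0.138).

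Cntf, ciliary neurotrophic factor, signals through its receptor and gp130 to Jak kinases and Stat3, and it is used in mice to promote survival and axon growth of injured ganglion cells. Its level was 5.61, 6.71 and 4.96 CPM in ONC columns 3, 5 and 6 and 19.1, 17.2 and 23.0 CPM in the CKO replicates. All knockout libraries exceeded all wild-type ones, and the lowest knockout value was well above the highest wild-type value. The difference was 3.43-fold, with a log2 fold change of 1.78 ± 0.24 and an adjusted p of 0.0152. Intact retinas had 5.38 ± 0.829 CPM, and crush alone gave a log2 fold change of 0.10 (adjusted p = 0.793). The call held in 11 of 19 alternatives; the adjusted p was 0.157 against column 5 alone and 0.109 with columns 3 and 6 summed into 1 library. The gene Zfp91 overlaps Cntf on the same strand, and it had 67.0 CPM in ONC and 58.7 CPM in CKO (log2 fold change -0.19, adjusted p = 0.327).

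Downstream of Cntf the values did not follow one direction. Of 19 gp130 and Stat3 genes tested, 1 was called higher, Cntf itself, and none was called lower. Over all genes, 0.587% were called higher and 0.278% lower. The median log2 difference of the 19 was 0.12. Stat3 stood at 67.5, 44.2 and 64.0 CPM in ONC and 46.8, 40.7 and 46.6 CPM in CKO, so the groups overlapped through column 5, and the log2 fold change was -0.39 (adjusted p = 0.228). The shared receptor chain Il6st, which encodes gp130, had a log2 fold change of -0.23 (adjusted p = 0.452), and the feedback inhibitor Socs3 one of 0.12 (adjusted p = 0.934). Lifr, the second chain of the Cntf receptor, stood at 74.7, 75.3 and 80.1 CPM in ONC and 109, 115 and 95.1 CPM in CKO, with a log2 fold change of 0.47 (adjusted p = 0.0637).

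**Figure D3:**
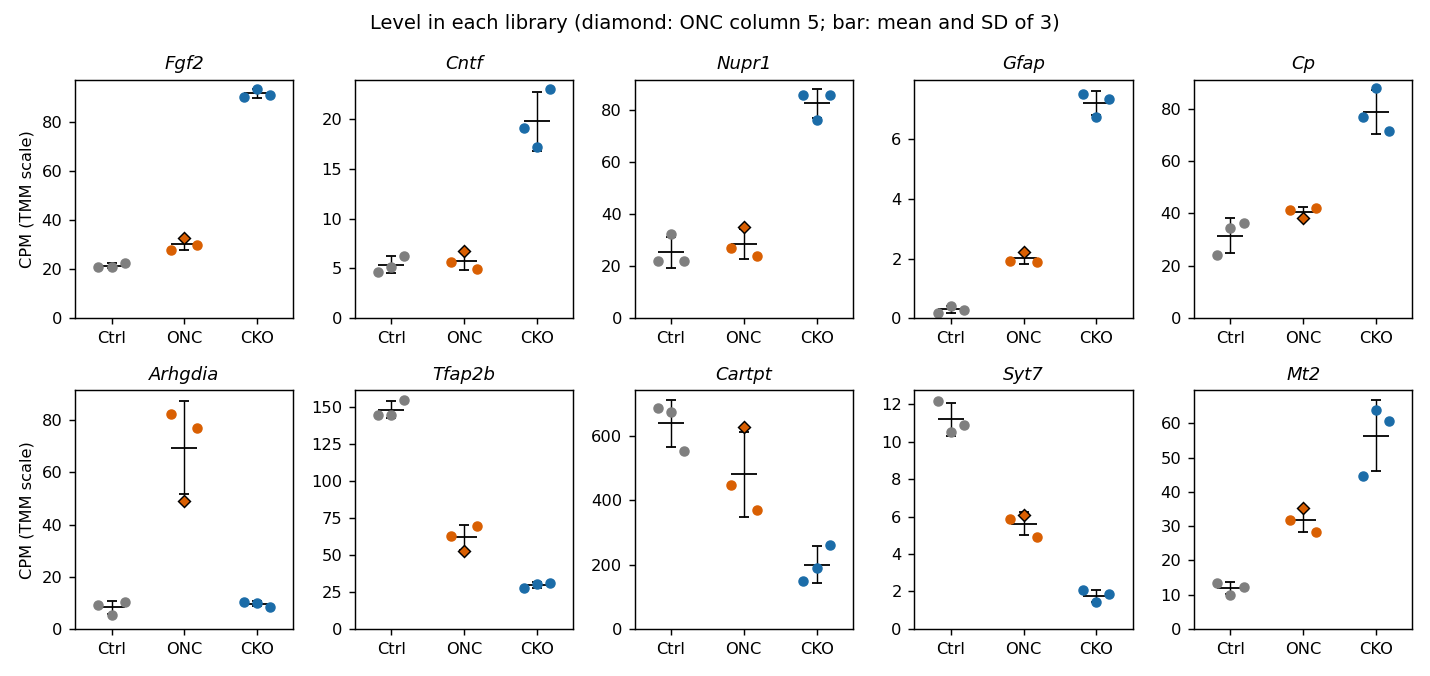
Level of 10 genes in each of the 9 libraries, in CPM on an axis from 0 for each gene. Points are libraries, the diamond is ONC column 5, and the bars give the mean and SD of 3. Fgf2, Cntf, Nupr1, Gfap and Cp lie higher in every CKO library than in every ONC library, as does Mt2, which was not called; Arhgdia, Tfap2b, Cartpt and Syt7 lie lower.

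Arhgdia was the called gene with the largest fall among those above 10 CPM on average. It encodes a guanine nucleotide dissociation inhibitor, which holds Rac, Cdc42 and related small GTPases inactive in the cytosol. The gene lies on chromosome 11 from 120578104 to 120581624 on the minus strand (ENSMUSG00000025132). ONC columns 3, 5 and 6 had 82.3, 49.1 and 77.0 CPM, and CKO replicates had 10.5, 9.98 and 8.58 CPM. Column 5 was the lowest of the wild-type libraries and still lay far above all knockout ones. Arhgdia was 7.18-fold lower in CKO, a log2 fold change of -2.84 ± 0.26 with an adjusted p of 0.00142. Intact retinas had 8.32 ± 2.51 CPM, and crush alone gave a log2 fold change of 3.05 over them (adjusted p = 0.000255). Between the crushed knockout and the intact retinas the log2 difference was 0.21 ± 0.25 (adjusted p = 0.691). The call held in all 19 alternatives, with log2 fold changes of -3.04 to -2.34; its largest adjusted p was 0.0328.

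The other listed genes for small GTPases and their regulators were not called. Among 28 tested, none was called higher, and the median log2 difference was 0.29. The 1 called lower was Arhgdia, where 0.278% of all genes were called lower. Its paralogue Arhgdib, known from blood cells, had 15.9, 36.8 and 14.4 CPM in ONC and 43.3, 46.9 and 40.6 CPM in CKO. Those groups did not overlap, but column 5 lay close to the knockout values, and the log2 fold change of 0.97 missed the threshold (adjusted p = 0.0976). The kinase gene Rock2, which limits axon growth, rested at 107, 121 and 107 CPM in ONC and 170, 166 and 143 CPM in CKO (log2 fold change 0.51, adjusted p = 0.0646).

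Genes of reactive glia held some of the called rises. Of 21 tested, 2 were called higher, Gfap and Cp, and none lower, where 0.587% of all genes were called higher. The libraries did not overlap for 11 with CKO higher and 1 with CKO lower, against 13.6% and 12.6% of all genes. The median log2 difference was 0.73, with 1.14 against column 5 alone, 0.45 without it and 0.76 with GC correction. Gfap, the intermediate filament of astrocytes and injured Müller glia, stood at 1.93, 2.22 and 1.88 CPM in ONC and 7.52, 6.74 and 7.36 CPM in CKO. The groups lay far apart and each was tight. Gfap was 3.59-fold higher, a log2 fold change of 1.84 ± 0.36 (adjusted p = 0.0427). Intact retinas had 0.294 ± 0.119 CPM, and crush alone gave a log2 fold change of 2.79 (adjusted p = 0.00195). The Gfap call held in 8 of 19 alternatives, with an adjusted p of 0.351 against column 5 alone.

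The Gfap promoter is shown for its match to the STAT palindrome TTCNNNGAA, the letters that Stat3 and related factors bind. The palindrome, searched on both strands, occurs in 8.3% of the promoters. The window is chr11:102897151-102897450 on the minus strand, and capitals mark the 1 match. It begins at position -2 from the annotated start, and binding there was not tested.
Gfap: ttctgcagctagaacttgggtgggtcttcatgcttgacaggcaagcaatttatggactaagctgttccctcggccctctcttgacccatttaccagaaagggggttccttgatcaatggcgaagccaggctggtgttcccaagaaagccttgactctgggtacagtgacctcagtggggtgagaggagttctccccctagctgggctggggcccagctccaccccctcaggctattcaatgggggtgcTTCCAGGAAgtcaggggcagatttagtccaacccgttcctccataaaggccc
The Nupr1 promoter window also held 1 such match, and the Cntf window held none. For the synapsin gene Syn2, which was called lower, 1 window held 1 match and another held 0.

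Cp, ceruloplasmin, is a copper-binding ferroxidase that Müller glia make. Its level was 41.3, 38.1 and 42.1 CPM in ONC and 77.0, 87.9 and 71.5 CPM in CKO, 1.94-fold higher with no overlap (log2 fold change 0.96 ± 0.17, adjusted p = 0.0342). With GC correction its log2 fold change was 0.68 and its adjusted p 0.0761. Reads shared with Hps3, which overlaps Cp on the opposite strand, cannot be told apart, and Hps3 had a log2 fold change of 0.66 (adjusted p = 0.0677). Edn2, endothelin 2, is made by injured photoreceptors and signals to glia. Edn2 stood at 21.6, 9.57 and 20.8 CPM in ONC and at 38.6, 38.9 and 37.9 CPM in CKO. Its wild-type libraries lay below all knockout ones, column 5 lowest, and the log2 fold change of 1.15 just missed the threshold (adjusted p = 0.0518). A2m, a protease inhibitor, had 1.84, 2.47 and 1.63 CPM in ONC and 11.7, 7.99 and 7.97 CPM in CKO (log2 fold change 2.22, adjusted p = 0.0512). The calcium-binding protein gene S100a6 had a log2 fold change of 0.86 (adjusted p = 0.0512). Of the 21 members 16 had a log2 difference above 0; the lowest values were -1.50 for Ptx3, a pentraxin (adjusted p = 0.428), and -0.74 for Lcn2, lipocalin 2 (adjusted p = 0.111).

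Müller glia markers are given beside them. Summed over the 22 listed genes, they came to 2840, 2790 and 2680 CPM in ONC and to 3180, 3420 and 3250 CPM in CKO. Those sums did not overlap, and the two-sided exact permutation test gave p = 0.1, the smallest that 3 against 3 libraries allow. The sums of many other lists reached the same p. Cytosolic ribosomal protein genes and astrocyte markers, which were lower in CKO, were among them. edgeR called none of the 22. At an unadjusted p under 0.05, 10 were higher and 0 lower, against 14% and 13.3% of all genes. DESeq2 called 3 higher, against 7.5% of all genes. The median log2 difference was 0.38, and it was 0.28 to 0.38 over the scalings tried. Crym, a thyroid hormone-binding protein, had a log2 fold change of 0.93 (adjusted p = 0.0634), and the antioxidant enzyme gene Prdx6 one of 0.56 (adjusted p = 0.0517). Glul, the glutamine synthetase that defines these cells, had -0.20 (adjusted p = 0.388), and Rlbp1, which carries retinaldehyde, had 0.03 (adjusted p = 0.931). Vim belongs to both glial lists. The part of Müller glia content in the reactive gene values was not tested.

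Astrocyte markers did not share 1 direction. The 10 listed genes, Gfap among them, summed to 845, 839 and 834 CPM in ONC and 790, 737 and 798 CPM in CKO. Of 8 tested, 4 had a log2 difference above 0. The median was 0.03, and 0.83 against column 5 alone. Libraries did not overlap for 2 with CKO higher and 2 with CKO lower, against 13.6% and 12.6% of all genes. S100b had 1.45, 1.09 and 1.58 CPM in ONC and 1.97, 3.77 and 5.33 CPM in CKO (log2 fold change 1.42, adjusted p = 0.1). Of 18 microglia and macrophage markers 6 were tested, and none was called by edgeR. At an unadjusted p under 0.05, 2 were higher, against 14% of all genes, and DESeq2 called 2 higher, against 7.5%. All 6 had a log2 difference above 0, with a median of 1.22, and of 1.44 against column 5 alone. For 2 of them, Tyrobp and Ctss, no ONC library had a count, so they passed the expression filter only through other groups. The shared direction and the median are therefore descriptive only. The defining markers Aif1, P2ry12 and Tmem119 were at 0 in all ONC libraries and averaged at most 0.324 CPM in CKO. Tyrobp, a microglial adaptor protein, had 0 counts in all ONC libraries and 21, 10 and 23 counts in CKO (adjusted p = 0.0776). The 10 pericyte markers summed to 5.96, 8.39 and 6.88 CPM in ONC and 11.3, 12.7 and 10.6 CPM in CKO, without overlap, as did many other lists. Only 4 of them were tested, with a median of 0.34. Of 5 endothelial markers tested, 1 had a log2 difference above 0. Their median was -0.7, and 0.42 against column 5 alone. The erythrocyte gene Hba-a1 had 18, 10 and 20 counts in ONC and 0 in every CKO library (adjusted p = 0.0517). It too passed the filter only through other groups. The part of these cells in the reactive gene values was not tested.

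**Figure D4:**
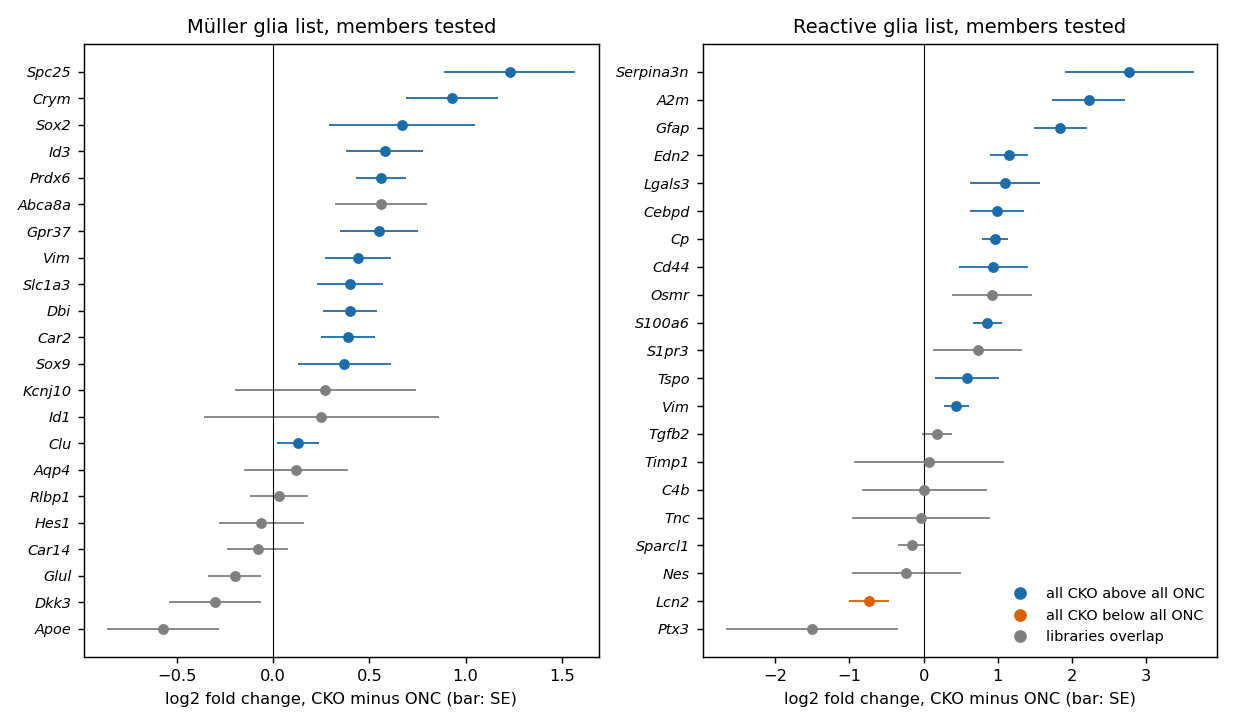
Log2 fold change of CKO over ONC, with SE as bars, for the tested members of the Müller glia list (left, 22 genes) and the reactive glia list (right, 21 genes). Blue marks genes whose CKO libraries all lie above all ONC libraries, orange the reverse and grey an overlap. Blue holds 12 of 22 and 11 of 21 genes, against 13.6% of all genes tested.

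Zinc-handling genes were measured because the missing transporter handles zinc. Metallothioneins bind zinc in the cytosol and are induced by it through Mtf1. None of 23 zinc genes tested was called by edgeR. Before adjustment (p under 0.05), 4 were higher and 4 lower, against 14% and 13.3% of all genes. DESeq2 called 4 higher and 1 lower, against 7.5% and 6.77%. Mt2 stood at 31.8, 35.2 and 28.2 CPM in ONC and at 44.6, 63.8 and 60.8 CPM in CKO. All knockout libraries were higher, and the log2 fold change of 0.83 ± 0.18 fell just short of the threshold (adjusted p = 0.0512). Its adjusted p ranged over the alternatives from 0.0013 without column 5 to 0.371 against column 5 alone, with 0.0394 under GC correction and 0.22 with columns 3 and 6 summed. Intact retinas had 11.9 ± 1.82 CPM of Mt2, and crush alone gave a log2 fold change of 1.42 (adjusted p = 0.00135).

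Mt1 had 115, 224 and 103 CPM in ONC and 207, 272 and 249 CPM in CKO. Its groups overlapped, because column 5 exceeded CKO replicate 1, and the log2 fold change was 0.72 ± 0.26 (adjusted p = 0.107). Mt3, the metallothionein of neurons, had a log2 fold change of -0.23 (adjusted p = 0.553). Mtf1, the zinc sensor, had 0.12 (adjusted p = 0.61), and Slc30a1, the zinc exporter it induces, had 0.38 (adjusted p = 0.25). The Golgi zinc transporter Slc30a7 had 0.79 (adjusted p = 0.0788), and the importer Slc39a1 had -0.73 (adjusted p = 0.0801).

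The Mt1 and Mt2 promoters are shown so that their letters can be compared with the Fgf2 window. Capitals again mark TGCACNC or TGCGCNC on either strand. The Mt1 window, chr8:94178839-94179138 on the plus strand, held 3 matches, and the Mt2 window, chr8:94172368-94172667 on the plus strand, held 4. In these windows no match overlapped another.
Mt1: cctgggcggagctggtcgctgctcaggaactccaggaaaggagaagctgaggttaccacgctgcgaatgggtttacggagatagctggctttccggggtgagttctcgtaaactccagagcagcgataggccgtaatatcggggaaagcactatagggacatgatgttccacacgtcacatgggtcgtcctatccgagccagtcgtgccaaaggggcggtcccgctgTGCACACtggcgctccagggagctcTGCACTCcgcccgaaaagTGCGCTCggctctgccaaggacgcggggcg
Mt2: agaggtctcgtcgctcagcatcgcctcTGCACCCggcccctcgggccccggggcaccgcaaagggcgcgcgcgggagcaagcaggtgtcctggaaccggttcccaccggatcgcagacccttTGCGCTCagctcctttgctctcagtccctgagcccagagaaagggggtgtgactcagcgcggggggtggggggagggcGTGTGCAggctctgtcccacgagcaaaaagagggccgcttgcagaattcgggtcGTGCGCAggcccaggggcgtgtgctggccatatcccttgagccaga

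Nupr1, a small nuclear protein induced by stress, was higher in the knockout. ONC columns 3, 5 and 6 had 26.8, 34.8 and 23.8 CPM, and the CKO replicates had 85.7, 75.9 and 85.6 CPM. The lowest knockout library lay far above the highest wild-type one. Nupr1 was 2.89-fold higher, a log2 fold change of 1.53 ± 0.19 (adjusted p = 0.0141), and the call held in 11 of 19 alternatives. Intact retinas had 25.4 ± 5.93 CPM, near the crushed wild type. It was the only gene called of 31 tested in the integrated stress and unfolded protein response list. Of all genes, 0.587% were called higher. The list's median log2 difference was -0.02. Atf4, the transcription factor that drives the integrated stress response, had -0.10 (adjusted p = 0.617), and its target Trib3 had -1.16 (adjusted p = 0.0797). Ddit3, which encodes CHOP, had 0.29 (adjusted p = 0.186).

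The called falls included genes of retinal interneurons. Tfap2b, which specifies amacrine and horizontal cells, stood at 63.2, 52.8 and 69.9 CPM in ONC and 27.6, 30.5 and 31.1 CPM in CKO, with no overlap. The fall was 2.08-fold, a log2 fold change of -1.06 ± 0.14 (adjusted p = 0.0141). Intact retinas had 148 ± 6.01 CPM, and crush alone gave a log2 fold change of -1.26 (adjusted p = 0.000693). Tfap2b was the 1 gene called among 20 amacrine markers tested, where 0.278% of all genes were called lower. The median log2 difference of those 20 was -0.24. The amacrine list summed to 373, 372 and 393 CPM in ONC and 298, 353 and 319 CPM in CKO, lower in every knockout library (two-sided exact permutation p = 0.1, the smallest possible). Sums of many other lists, astrocyte and Müller glia markers among them, also kept the groups apart. Tfap2b is also the 1 gene called among 9 horizontal cell markers tested, against the same 0.278% of all genes. The median log2 difference of those 9 was -0.36. That list summed to 256, 261 and 248 CPM in ONC and 217, 239 and 208 CPM in CKO, again without overlap. Both sums count Tfap2b itself, and without its CPM neither would keep the groups apart. C1ql1 and C1ql2, secreted synapse organisers, had -0.89 and -1.07 (adjusted p = 0.0627 and 0.0577), and the GABA-synthesising enzyme gene Gad2 had -0.04 (adjusted p = 0.932). The part of amacrine and horizontal cell content in the Tfap2b value was not tested.

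Cartpt encodes a neuropeptide found in a set of ganglion and amacrine cells. It had 447, 628 and 369 CPM in ONC and 148, 190 and 261 CPM in CKO. The groups did not overlap although both were broad, and column 5 was the highest library. Cartpt was 2.41-fold lower, a log2 fold change of -1.27 ± 0.23 (adjusted p = 0.0362); against column 5 alone it was -1.65 (adjusted p = 0.0132). Intact retinas had 639 ± 74.4 CPM.

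Synaptic vesicle genes held 2 called lower and none higher among 47 tested, where 0.278% of all genes were called lower. At an unadjusted p under 0.05, 12 were lower and 4 higher, against 13.3% and 14% of all genes. By DESeq2 10 were lower and 1 higher, against 6.77% and 7.5%. Syt7, a calcium sensor for slow transmitter release, had 5.87, 6.07 and 4.92 CPM in ONC and 2.06, 1.42 and 1.84 CPM in CKO (log2 fold change -1.66 ± 0.27, adjusted p = 0.0294). Syn2, a synapsin that tethers vesicles, had 6.23, 5.18 and 5.25 CPM in ONC and 1.65, 1.86 and 1.84 CPM in CKO (log2 fold change -1.63 ± 0.34, adjusted p = 0.0492). Neither gene's libraries overlapped, and column 5 did not stand apart for them; with GC correction neither was called (adjusted p = 0.0649 for Syt7 and 0.0658 for Syn2). It did for other members of the list. Syp, the vesicle protein synaptophysin, had 220, 90.4 and 196 CPM in ONC and 87.5, 85.1 and 98.8 CPM in CKO (log2 fold change -0.90, adjusted p = 0.0721). The list's median log2 difference was -0.21, and against column 5 alone it was 0.02. Outside the list, Rph3a, a rabphilin that binds Rab3 on vesicles, was lower, with 24.5 CPM in ONC and 11.2 CPM in CKO (log2 fold change -1.13, adjusted p = 0.0479).

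Caln1 and Epb41l4a were also among the largest falls by the naming rule. Caln1, a calcium-binding protein of neurons, had 6.80, 1.88 and 6.71 CPM in ONC and 0.55, 0.666 and 0.707 CPM in CKO. Column 5 lay between columns 3 and 6 and the knockout libraries, and the log2 fold change was -2.99 in all and -1.54 against column 5 alone (adjusted p = 0.0294 in all). Epb41l4a, a membrane-linked FERM protein, had 4.08, 4.44 and 3.67 CPM in ONC and 0.733, 0.177 and 0.755 CPM in CKO. The wild-type columns were alike for it, and the log2 fold change was -2.86 ± 0.44 (adjusted p = 0.0294).

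Some neuronal surface genes rose instead. Gpr158, an orphan receptor of neurons, had 2.15, 1.38 and 1.63 CPM in ONC and 5.41, 6.83 and 4.67 CPM in CKO (log2 fold change 1.71, adjusted p = 0.0427). Astn1, a neuronal protein that guides migration along glia, had 2.89, 1.83 and 3.17 CPM in ONC and 8.43, 7.68 and 6.46 CPM in CKO (log2 fold change 1.51, adjusted p = 0.0479). Neither gene's libraries overlapped. In intact retinas Gpr158 averaged 9.13 CPM and Astn1 7.28 CPM, both above the crushed wild type (adjusted p = 0.0014 and 0.00705). Cadm2, a synaptic adhesion molecule, was higher at 596 against 362 CPM (log2 fold change 0.72, adjusted p = 0.0479). The Cadm2 call was lost with GC correction, at 0.38 (adjusted p = 0.0761), and against column 5 alone, at 0.42 (adjusted p = 0.239).

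Ganglion cell and axon injury genes gave no call. Of 18 ganglion cell markers tested, none was called by edgeR. At an unadjusted p under 0.05, 1 was higher and 2 lower, against 14% and 13.3% of all genes. DESeq2 also called 1 higher and 2 lower, against 7.5% and 6.77%. Rbpms, an RNA-binding protein that marks these cells, stood at 3.68, 4.49 and 3.50 CPM in ONC and 1.74, 1.15 and 1.37 CPM in CKO. All knockout libraries were lower, at a log2 fold change of -1.45 ± 0.41 (adjusted p = 0.0715). Pou4f1 was detected mainly in column 5, at 0.0438, 2.32 and 0 CPM in ONC and 0.0458, 0.532 and 0.236 CPM in CKO (adjusted p = 0.536). Nefl, a neurofilament, had a log2 fold change of -0.34 (adjusted p = 0.475). Isl1, listed for both ganglion and bipolar cells, was higher in every CKO library. It had 43.3, 54.1 and 40.2 CPM in ONC and 54.9, 69.9 and 73.2 CPM in CKO (log2 fold change 0.53, adjusted p = 0.0784). The list summed to 156, 217 and 147 CPM in ONC and 151, 182 and 177 CPM in CKO, which overlapped.

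Of 35 axon injury and regeneration genes tested, none was called by edgeR. Before adjustment (p under 0.05), 6 were higher and 7 lower, against 14% and 13.3% of all genes. DESeq2 called 3 higher and 1 lower, against 7.5% and 6.77%. Atf3, an injury-induced transcription factor, had 25.9, 15.7 and 23.0 CPM in ONC and 17.5, 22.6 and 23.7 CPM in CKO, a log2 fold change of -0.02 ± 0.22 (adjusted p = 0.968). Jun, its partner, had 23.5, 8.68 and 20.7 CPM in ONC and 11.3, 11.9 and 12.3 CPM in CKO (log2 fold change -0.57, adjusted p = 0.278). Column 5 was the lowest library for both, so that both had a positive log2 fold change against it alone, 0.44 for Atf3 and 0.45 for Jun. The growth cone protein gene Gap43 had a log2 fold change of -0.24 (adjusted p = 0.525). Sox11, a regeneration factor, ranged from 0.292 to 3.60 CPM in ONC and from 0.33 to 2.61 CPM in CKO (adjusted p = 0.87). Ecel1, another listed gene, had 0 counts in every ONC library and 15, 12 and 47 counts in CKO. It just missed the threshold (adjusted p = 0.0512). Ecel1 passed the expression filter only through other groups, so its difference is descriptive only.

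The remaining genes of lowest p belonged to none of the lists. Echdc1, an ethylmalonyl-CoA decarboxylase that removes a faulty metabolite, had 19.3, 16.5 and 18.7 CPM in ONC and 47.9, 44.7 and 54.0 CPM in CKO (log2 fold change 1.43 ± 0.16, adjusted p = 0.00744). Its call held in 14 of 19 alternatives, column 5 alone among them. Mex3c, an RNA-binding ubiquitin ligase, had 22.0, 24.3 and 20.7 CPM in ONC and 47.4, 50.2 and 50.5 CPM in CKO (log2 fold change 1.14 ± 0.13, adjusted p = 0.00848). Intact retinas had 52.5 ± 2.76 CPM of Mex3c. The splicing factor gene Rbm17 had 80.6, 68.9 and 77.8 CPM in ONC and 133, 157 and 138 CPM in CKO (log2 fold change 0.91 ± 0.13, adjusted p = 0.0205). No library overlapped between groups for any of the 3.

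Fmo1, a flavin monooxygenase, fell from 142, 105 and 132 CPM in ONC to 56.5, 59.7 and 61.5 CPM in CKO (log2 fold change -1.09 ± 0.14, adjusted p = 0.0152). Fam160a2, part of a complex that links cargo to dynein, fell from 49.1, 31.7 and 45.2 CPM to 17.4, 16.9 and 17.3 CPM (log2 fold change -1.29 ± 0.18, adjusted p = 0.0205). Both were separated between groups, with column 5 the lowest wild-type library. Other large falls by the rule were in Smg9 (nonsense-mediated decay), Sema4g (a semaphorin), Rel (an NF-kB subunit), Pi4k2a (a phosphatidylinositol kinase) and Tada3 (a histone acetylation coactivator), with log2 fold changes of -1.46 to -1.23. Their adjusted p values ran from 0.0294 to 0.0492. Of these, Pi4k2a moved most with the library, at -0.61 against column 5 alone. With GC correction Smg9, Sema4g and Tada3 were not called, at -0.93, -0.94 and -0.89 (adjusted p = 0.0551, 0.0865 and 0.0803).

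Among called genes with the highest levels, H3f3a, one of the genes for histone H3.3, had 981, 1430 and 928 CPM in ONC and 1970, 2030 and 1860 CPM in CKO (log2 fold change 0.81, adjusted p = 0.0427). Eno1, the glycolytic enolase, had 2630, 1710 and 2170 CPM in ONC and 1370, 1260 and 1390 CPM in CKO (log2 fold change -0.69, adjusted p = 0.0479). Column 5 was the wild-type library nearest to the knockout for both, and with GC correction the values were 0.50 and -0.23 (adjusted p = 0.0568 and 0.218). Both genes have near-identical copies in the mouse genome, among which the authors' counting could split reads. Impg2, a proteoglycan of the matrix around photoreceptors, had 387, 348 and 386 CPM in ONC and 514, 534 and 574 CPM in CKO (log2 fold change 0.53, adjusted p = 0.0479). With GC correction Impg2 was not called, at 0.29 (adjusted p = 0.198).

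The remaining large rises by the rule were Triqk, Ccdc38, 1700019D03Rik, Gm32687, 4930503L19Rik and Gm4724, with log2 fold changes of 1.55, 1.59, 1.70, 1.69, 1.62 and 2.46. Their adjusted p values ran from 0.0247 to 0.0479. In Gm4724 the ONC values were 3.24, 10.9 and 2.54 CPM and the CKO values 38.3, 20.2 and 32.8 CPM, so column 5 again lay nearest to the knockout. With GC correction Triqk, Ccdc38 and 1700019D03Rik were not called, at 1.08, 1.18 and 1.33 (adjusted p = 0.0568, 0.0799 and 0.0662).

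A few called genes were not counted at all in one group. Plekhf1, a lysosomal and endosomal protein, had 0 counts in every ONC library and 44, 15 and 45 counts in CKO. Pgf, placental growth factor, had 0 counts in ONC and 28, 16 and 11 counts in CKO. Zfp935 likewise had 0 counts in ONC and 21, 10 and 29 counts in CKO. All were present in intact retinas, where Plekhf1 had 3, 6 and 13 counts and Pgf had 7, 12 and 22. No fold is given, since a count of 0 allows up to 3 counts in a library. With 0 counts in ONC, these genes passed the expression filter only through other groups, so their calls are descriptive only. Exons of Zfp935 overlap those of Gm49359 and Zfp934 on the same strand, among which counting could split reads. Gm49359 had 44 CPM in ONC and 65.3 CPM in CKO, and Zfp934 had 18.1 and 23.9 CPM.

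**Figure D5:**
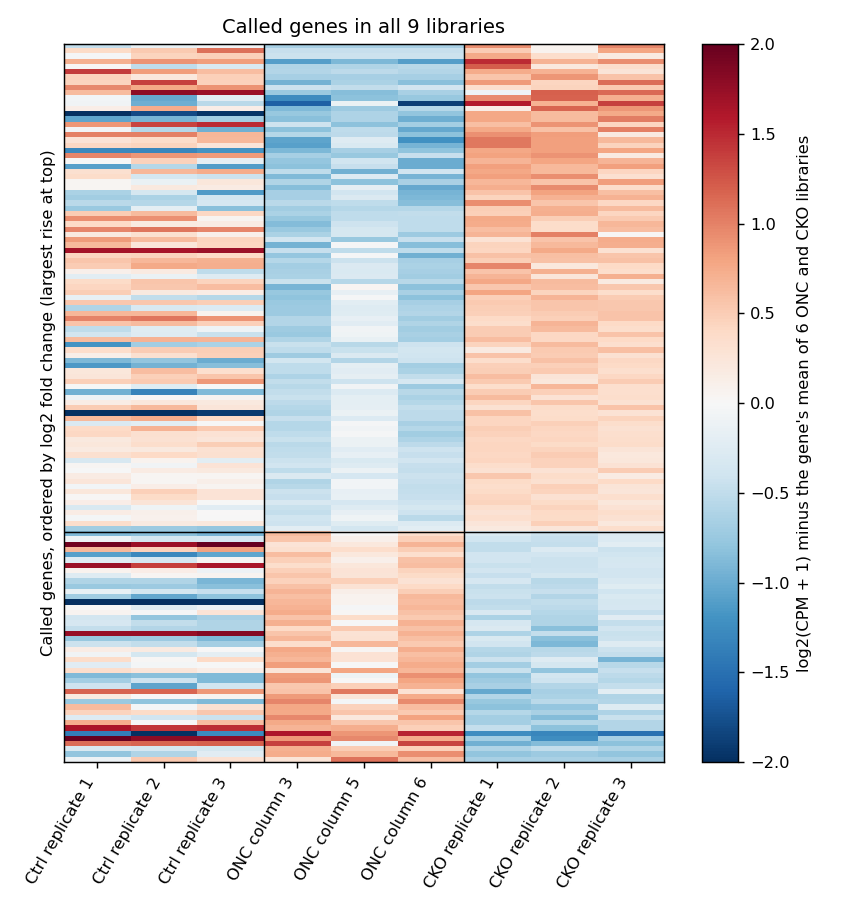
Heat map of the 137 called genes (rows, ordered by log2 fold change) in the 9 libraries (columns), coloured by log2(CPM + 1) minus the gene's mean over the 6 ONC and CKO libraries, from -2 in blue to 2 in red. The 93 genes above the line are redder in CKO and the 44 below are bluer; ONC column 5 is paler than columns 3 and 6 in most rows.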

How the data were processed

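Gene expression was measured by RNA sequencing in 9 mouse libraries, 3 each of Ctrl, ONC and CKO. Per the labels' protocols, Discover-sc WTA Kit V2 amplified the RNA. TruePrep DNA Library Prep Kit V2, a tagmentation kit, made the libraries; it marks no strand although the labels call them stranded. Amplification of small inputs without molecular identifiers adds copies to the counts, so counting limits cover counting error only. Trimmomatic 0.36 and the builds GRCm38 and mm10 are named by the submitters' processing notes. An aligner, a counter and an annotation are not given in the sources used here. The authors deposited an expected count per gene and library, not normalized, per the file headers. Its 9 FPKM columns, of 18 value columns, were not used.

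Expected counts were rounded and fitted in R 4.3.3 with edgeR 4.0.16 (filterByExpr by group, TMM scaling, 1 quasi-likelihood model over all 9 libraries, no covariate). Every adjusted p is Benjamini-Hochberg adjusted over the 15841 genes tested and comes from this edgeR test unless DESeq2 1.42.0 is named. Levels are CPM on the TMM scale, and comparisons of levels are made within a gene. Of 24772 table entries, 2802 were assembled loci without a gene name; symbols and positions of the rest came from GENCODE M21 (GRCm38). The script was tested on simulated data.

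The genes named were the 12 called rises and the 12 called falls with the largest log2 change, a symbol, no overlap and a mean of at least 16 counts and 2 CPM; the 10 lowest p; the 6 highest levels; called and lowest-p members of the lists; and genes set beforehand. Several uncalled list members that the rule picks by p, such as B2m, Bax and Rom1, are not described. Rph3a, Plekhf1, Pgf, Zfp935, Edn2, A2m and other uncalled list members fall outside this rule and were chosen after their values were seen. The genes and lists were chosen with earlier results of these data known, so no list is independent support. Alternatives were DESeq2, other scalings and filters, fewer libraries, each library left out in turn, and offsets for GC content and length, for which natural splines with 5 degrees of freedom stood in for a loess curve. Promoters are RefSeq windows.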

Additional observations from a re-analysis of the deposited data

How the results depend on the processing

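The number of calls depended on the setting. Because the libraries of all 137 called genes did not overlap, leaving out libraries could not turn their direction. Against 93 genes higher and 44 lower, DESeq2 called 1188 and 1073, library totals without TMM 210 and 286, upper quartile scaling 166 and 145, no expression filter 425 and 365, and a stricter filter (1 CPM) 205 and 156. RLE size factors gave 105 and 49. A fit to the 6 ONC and CKO libraries alone gave 1 and 1, as did summing ONC columns 3 and 6 into 1 library, where 2395 genes had an unadjusted p under 0.05; column 5 as the only ONC library gave 4 and 4, with 1661 genes under that level. In fits with 1 ONC library, that library is assumed to vary like the other groups. Offsets for GC content and length gave 42 and 30, of which 58 were among the 137; besides the genes given in the report, Dnttip2 lost its call there (0.38, adjusted p = 0.0761). Leaving out 1 library at a time gave 1 to 3277 genes higher and 1 to 2664 lower, the highest without ONC column 5. Calls of Fgf2 and Arhgdia held in all 19 settings. Library totals moved the median log2 difference of all genes from -0.02 to -0.13. Total counts of the 6 libraries lay between 21094249 and 23549482, and genes under about 1 CPM rest on few counts.

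Of genes named by the rule, 14 changed sign somewhere, none of them called. Sox11 had log2 fold changes of -0.12 with columns 3 and 6 summed, -1.0 against column 5 alone, and -0.17 to 2.28 in the fits without 1 library; Atf3 had 0.08, 0.44 and -0.20 to 0.13 in the same settings. Against column 5 alone, Myl9 had -0.27, Stat3 0.02, Jun 0.45, Slc6a13 2.35 and Flt1 0.42. With GC and length offsets, Uqcrb and Cngb3 had -0.01, Ddit3 -0.10, Mt3 0.03 and Cd3d -0.11. Cd3d had -0.07 with library totals, 0.00 with upper quartile scaling, and -0.14 to 0.22 without 1 library. Without 1 library Gap43 ranged from -0.38 to 0.01 and Pou4f1 from -2.43 to 3.35, both highest without ONC column 5. The cause of these changes was not tested. No paired analysis was possible because the ONC columns carry the numbers 3, 5 and 6, which do not match the replicate numbers of the labels.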

Other observations

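Some called genes lie outside the lists. Il33, an alarmin cytokine stored in glial nuclei, had 22.5, 39.2 and 22.1 CPM in ONC columns 3, 5 and 6 and 55.9, 64.3 and 57.3 CPM in CKO replicates 1, 2 and 3, a log2 fold change of 1.08 ± 0.22 (adjusted p = 0.0492, edgeR). Frzb, a secreted Wnt antagonist, had 6.23, 7.75 and 5.04 CPM in ONC and 16, 19.1 and 16.3 CPM in CKO (log2 fold change 1.43, adjusted p = 0.0427). Cav1, the coat protein of caveolae, had 6.23, 9.97 and 6 CPM in ONC and 22.5, 24.3 and 15.6 CPM in CKO (log2 fold change 1.49, adjusted p = 0.0492). S100a11, a calcium-binding protein, had a log2 fold change of 1.38 (adjusted p = 0.0472). No libraries overlapped for these genes. Id4, an inhibitor of bHLH transcription factors, had 3.95, 3.80 and 3.79 CPM in ONC and 8.21, 10.6 and 7.45 CPM in CKO (adjusted p = 0.0378), against 20.9 ± 0.403 CPM in intact retinas.

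Further called genes were Pdk3, Ogdhl, Esrrb and Opa3. Pdk3, a kinase that restrains pyruvate dehydrogenase, rose from 26.6, 37.0 and 28.8 CPM to 63.3, 66.1 and 65.1 CPM (log2 fold change 1.07 ± 0.16, adjusted p = 0.0247). Ogdhl, a neuronal form of 2-oxoglutarate dehydrogenase, fell from 56.8, 61.9 and 64.4 CPM to 34.7, 23.4 and 32.6 CPM (log2 fold change -1.01 ± 0.16, adjusted p = 0.0294). Esrrb, an orphan nuclear receptor of rods, fell from 195, 116 and 189 CPM to 76.1, 77.1 and 84.1 CPM (log2 fold change -1.08, adjusted p = 0.0295), with column 5 the lowest wild-type library. Opa3, a mitochondrial protein named for optic atrophy, fell from 53.8, 27.6 and 56.1 CPM to 16.5, 22.5 and 20.1 CPM (log2 fold change -1.22, adjusted p = 0.0479). These genes were chosen after their values were seen.

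Nuclear oxidative phosphorylation genes held no edgeR call among 81. At an unadjusted p under 0.05, 23 were higher and 1 lower, against 14% and 13.3% of all genes. DESeq2 called 8 higher and 1 lower, against 7.5% and 6.77%. The median log2 difference of the 81 was 0.27, with 0.43 without column 5 and -0.02 against column 5 alone. Genes with a Zfp symbol, which encode zinc finger proteins, held 6 calls, all higher, among 371 tested, where 0.587% of all genes were called higher; their median log2 difference was 0.17, 0.07 against column 5 alone and 0.01 with GC and length offsets, and their median GC content was 44.0%. The part of GC content in these values was not tested beyond those offsets.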
